A study of Drosophila melanogaster with 12 samples.

Results

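The 36 genes described here encode chromatin remodellers, Polycomb and Trithorax group proteins, and corepressors of Drosophila melanogaster. They were chosen by gene symbol, and all 36 were found among the 13922 protein-coding genes used. They comprise 9 subunits of the SWI/SNF (Brahma) complexes, 7 other ATP-dependent remodellers or partners, 3 corepressor proteins and 6 genes of Polycomb repressive complex 1 (PRC1). The remaining genes are 4 of Polycomb repressive complex 2 (PRC2), the DNA-binding Polycomb factor pho, 3 of the Trithorax group, and 3 other histone-modifying enzymes. The rule that picks them is a list of gene symbols and has no threshold on a measured value.

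ATP-dependent remodellers slide, evict or exchange nucleosomes and so set which DNA is accessible. Polycomb complexes keep genes silent, PRC2 by methylating histone H3 and PRC1 by binding that mark and compacting chromatin, while Trithorax group proteins and SWI/SNF complexes oppose them. In the fly nervous system these machines help progenitors and neurons to hold or change their identity. Corepressors such as Sin3A and CoRest bring histone deacetylases or demethylases to transcription factors.

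The study measured where the TEAD-family factor Scalloped (Sd) and the zinc-finger factor Nerfin-1 sit in the larval central nervous system. DamID, in which a fused methylase marks the GATC sites that a protein comes near, was run on whole nervous systems of wandering larvae of the third instar. All DamID animals carried tubGal80TS, GMR31H08-Gal4 and UAS-GFP in a w background, and their attP2 transgene was pUAST-LT3-Dam (2 samples), pUAST-LT3-Dam-Sd (2 samples) or pUAST-LT3-Dam-Nerfin-1 (2 samples). Eggs were laid at 25°C, animals were kept at 18°C for 4 days and then at 29°C for the last 24 hours, so the fusion proteins were made only in cells of the driver and for that time. The sources used here do not say which cells GMR31H08-Gal4 marks. ATAC-seq (3 samples), which cuts open chromatin, and RNA-seq (3 samples) used GFP-positive cells sorted from nervous systems of the same stage, from animals with insertion iA of the reporter P[nerfin-1.GFP-NLS.SV-40] reared at 25°C. Binding and the other measurements thus come from cells chosen in different ways and at different temperatures.

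The authors' lists hold 4064 distinct Sd peaks, 3649 distinct Nerfin-1 peaks and 35494 ATAC intervals, 1 list per group with no height, p-value or replicate value. The Sd and Nerfin-1 samples share the Dam-only controls, whose role in the peak calls the sources used here do not state, so the lists are set side by side and their agreement is not read as a result. Of all Sd peaks 35.6% had the same boundaries in the Nerfin-1 list, and of all Nerfin-1 peaks 39.6% in the Sd list. RNA counts over the 5135 listed genes came to 43555895, 44657928 and 57468071 in libraries S1, S2 and S3, and levels are counts per 1000000 listed counts (CPM). All 7 neuronal markers checked were listed, with levels of 6827 to 7171 CPM when summed over the 7. Single neuronal markers went from Snap25 (48.8 to 53.4 CPM) to fne (2200 to 2547 CPM). Of the other markers, 1 of 5 neuroblast genes (ase, 31.6 to 58.2 CPM) and 1 of 5 glial genes (nrv2, 122 to 135 CPM) were listed. None of the 4 hemocyte and 5 muscle genes was.

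A gene was counted as carrying a peak when the peak overlapped the gene or the 1 kb on either side. Sd peaks were found at 23 of the 36 chromatin genes, against 35.6% of all protein-coding genes. Nerfin-1 peaks were found at 20 of 36, against 32.9% of all genes. These 20 genes all carried a Sd peak as well, the 3 genes with Sd alone were Pc, E(z) and G9a, and 13 genes had neither; over all genes 27.7% had both, 7.92% Sd alone, 5.24% Nerfin-1 alone and 59.1% neither. Every one of the 36 genes had at least 1 ATAC peak, which 83.2% of all genes and 98.9% of genes listed in the RNA table also had.

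**Figure D1:**
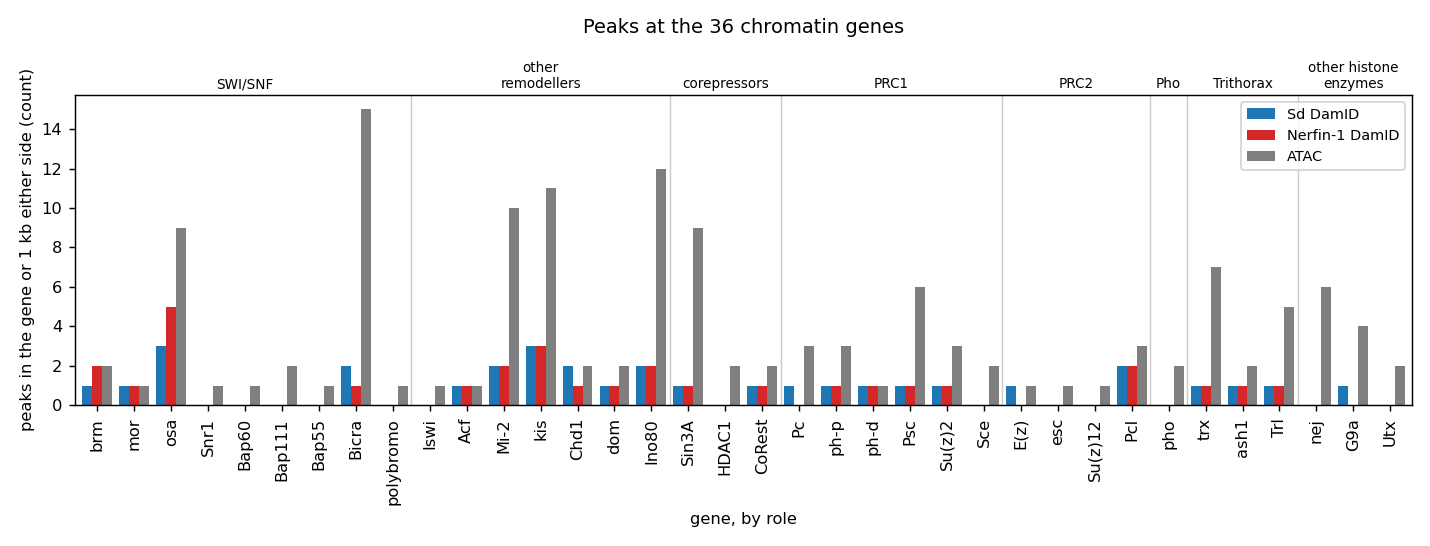
Number of Sd, Nerfin-1 and ATAC peaks (bars, count) in each of the 36 genes or the 1 kb on either side, with genes grouped by role on the horizontal axis. All genes have an ATAC peak, osa has the most Nerfin-1 peaks (5, among them a peak outside the gene, in Pxt), and nej has 6 ATAC peaks with no DamID peak.

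Occupied chromatin genes tended to be long. The 20 with both kinds of peak had a median length of 12950 bp, and the 13 with neither one of 2734 bp. Of the 9 genes over 15 kb, 8 carried Sd and Nerfin-1 peaks, while of the 11 genes under 5 kb 3 carried a Sd and 2 a Nerfin-1 peak. All protein-coding genes showed the same order, with Sd peaks at 28.9% of genes under 5 kb, 51.1% of genes of 5 to 15 kb and 63.5% of genes over 15 kb. For Nerfin-1 these shares were 26.0%, 48.4% and 62.5%. If each chromatin gene had the share of its own length class, 17.1 of the 36 would carry a Sd peak and 16.2 a Nerfin-1 peak, below the observed 23 and 20.

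Most of these genes were also expressed in the sorted cells, and listed genes were occupied more often. The RNA table listed at least 33 of the 36, against 35.5% of all protein-coding genes. Ino80 could not be looked up under its newer identifier and is counted as not listed. Of the 33, 21 had a Sd peak and 18 a Nerfin-1 peak, against 56.5% and 51.0% of all listed genes. The shares of listed genes of the same length classes give 21.3 and 19.6. Set against listed genes of like length, the counts for the chromatin genes were therefore close to the background, and nothing particular to these genes is read from them.

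**Figure D2:**
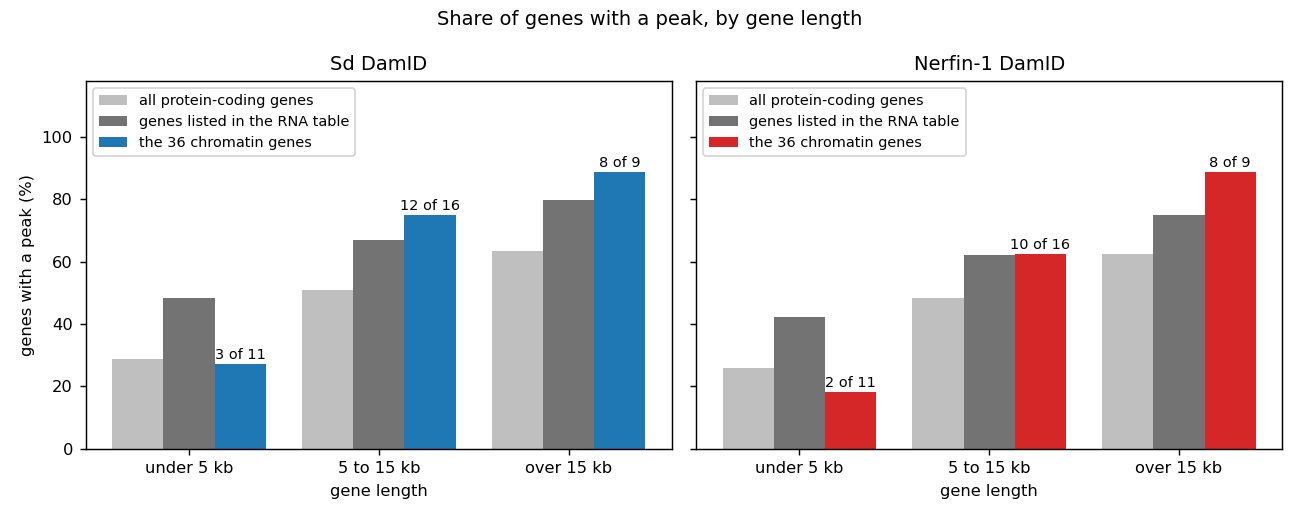
Percent of genes with a Sd peak (left) and a Nerfin-1 peak (right) by gene length, for all protein-coding genes, genes listed in the RNA table and the 36 chromatin genes, whose counts stand above the bars. The share rises with length in each set; at 5 to 15 kb, 66.9% and 62.2% of listed genes have a peak, and at under 5 kb the chromatin genes (3 and 2 of 11) lie below the listed genes (48.3% and 42.3%), and at over 15 kb (8 of 9) above them (79.8% and 75.1%).

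Sd and Nerfin-1 peaks were found at 4 of the 9 SWI/SNF genes, against 45.9% of listed genes with both. These were brm, mor, osa and Bicra, and none of the other 5 had either. The longest DamID domains among them were on osa, which encodes the ARID subunit that defines the BAP form of the complex, and on Bicra, the relative of mammalian GLTSCR1, a subunit of another form. At osa (FBgn0261885, 3R, 17687818 to 17718350) there were 3 Sd peaks, the longest of 7923 bp (17708370 to 17716292), and 5 Nerfin-1 peaks, the longest of 6866 bp (17709193 to 17716058). The Nerfin-1 peak of 1005 bp lay 796 bp outside osa and overlapped Pxt. Those of 4278 and 4044 bp both overlapped the same Sd peak of 5321 bp, so the 2 lists differ less at osa than these counts. Of its 9 ATAC peaks, 7 touched a DamID peak. Bicra (FBgn0039633, 3R, 29063040 to 29108948) had 1 domain of 8483 bp with the same boundaries in both lists (29063950 to 29072432). A further Sd peak of 530 bp at Bicra lay on no ATAC peak, and 3 of its 15 ATAC peaks touched a DamID peak.

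The ATPase gene brm (FBgn0000212, 3L) and the scaffold gene mor (FBgn0002783, 3R) were marked more narrowly. At brm a peak of 887 bp in both lists lay 900 bp outside the gene, within CG10516, and a Nerfin-1 peak of 874 bp lay inside brm where the genes CG17026 and CG17029 also lie. At mor the Sd peak (3643 bp) and the Nerfin-1 peak (2459 bp) covered one end of mor and overlapped its neighbour Hel89B. Snr1, Bap60, Bap111, Bap55 (all of them small core or accessory subunits) and polybromo, the subunit that defines the PBAP form, had neither peak. Their nearest Sd peaks were 3018, 15268, 4707, 5651 and 3774 bp away, and each had 1 or 2 ATAC peaks.

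RNA of all 9 SWI/SNF genes was listed. For brm the libraries S1, S2 and S3 gave 603, 655 and 629 CPM (629 ± 25.6; SD, n = 3). For mor it was 687, 688 and 688 CPM, an SD of 0.454 that is smaller than the counting error of 3.79 CPM. The osa level was 1301, 1322 and 1207 CPM, and Bicra stood at 1057, 1015 and 877 CPM, lowest in S3 for both. The unoccupied subunits were listed too, Snr1 at 143, 146 and 160 CPM, Bap60 at 307, 306 and 331 CPM and Bap111 at 380, 370 and 382 CPM. Bap55 had 182, 201 and 208 CPM and polybromo 155, 166 and 165 CPM. The lowest count of any listed gene was 99, so presence in all 3 libraries follows from being listed. No transcript lengths were at hand to divide CPM by, so values are read between libraries and no order of genes is drawn from them. Since the samples are bulk, fewer cells of a type and less RNA per cell cannot be told apart.

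Of the other remodellers, 6 of 7 carried both kinds of peak, against 45.9% of listed genes. The median length of the 7 was 18420 bp, and of listed genes over 15 kb 72.1% carried both. Iswi, the ATPase shared by the NURF, ACF and CHRAC complexes, had none, with the nearest peak 21059 bp away, while its partner gene Acf had 1 peak of 1100 bp in both lists across one end of the gene. Mi-2 (FBgn0262519, 3L, 19882051 to 19910215), the ATPase of the NuRD complex, had 2 Sd peaks of 4798 and 5771 bp and 2 shorter Nerfin-1 peaks of 1204 and 3771 bp inside them. All 4 also lie in Su(Tpl), which shares 20291 bp with Mi-2, and the authors' deposited table paired them with other identifiers (lncRNA:CR32218 and asRNA:CR43889). The CHD-family gene kis (FBgn0266557, 2L, 210735 to 250823) had 3 peaks of each kind. A peak of 4934 bp and one of 1837 bp had the same boundaries in both lists, whereas a Sd peak of 429 bp and a Nerfin-1 peak of 728 bp lay apart, on no ATAC peak. That of 728 bp also overlapped CG13693, which lies inside kis. The authors' deposited table paired it with CG13693, that of 429 bp with lncRNA:CR44221 and that of 1837 bp with mir-965.

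Shorter peaks marked the remaining remodellers. Chd1 had Sd peaks of 419 and 265 bp at opposite ends of the gene and the latter alone in the Nerfin-1 list. At dom, the ATPase that places the histone variant H2Av, a peak of 2062 bp with shared boundaries covered one end and reached into CG30394. Ino80 had 2 peaks in each list, 1 inside the gene (841 bp) and 1 with only 60 bp in the gene, which overlapped Aptx. The Ino80 identifier is newer than the files, so its RNA could not be looked up.

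The listed remodeller genes varied from 1.02-fold to 1.18-fold between the lowest and the highest library. The kis level was 3088, 3261 and 2763 CPM (3037 ± 253; SD, n = 3), the widest range. Mi-2 varied by 1.02-fold at 1015, 1040 and 1033 CPM. Its span overlaps that of Su(Tpl) (184, 187 and 167 CPM), and no exon positions were at hand. Whether any reads fell to both genes is therefore not known. The sources used here do not say whether strand was used in counting. For Iswi the values were 418, 447 and 439 CPM, for Acf 181, 210 and 208 CPM, for Chd1 313, 319 and 301 CPM and for dom 1022, 1137 and 1017 CPM.

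**Figure D3:**
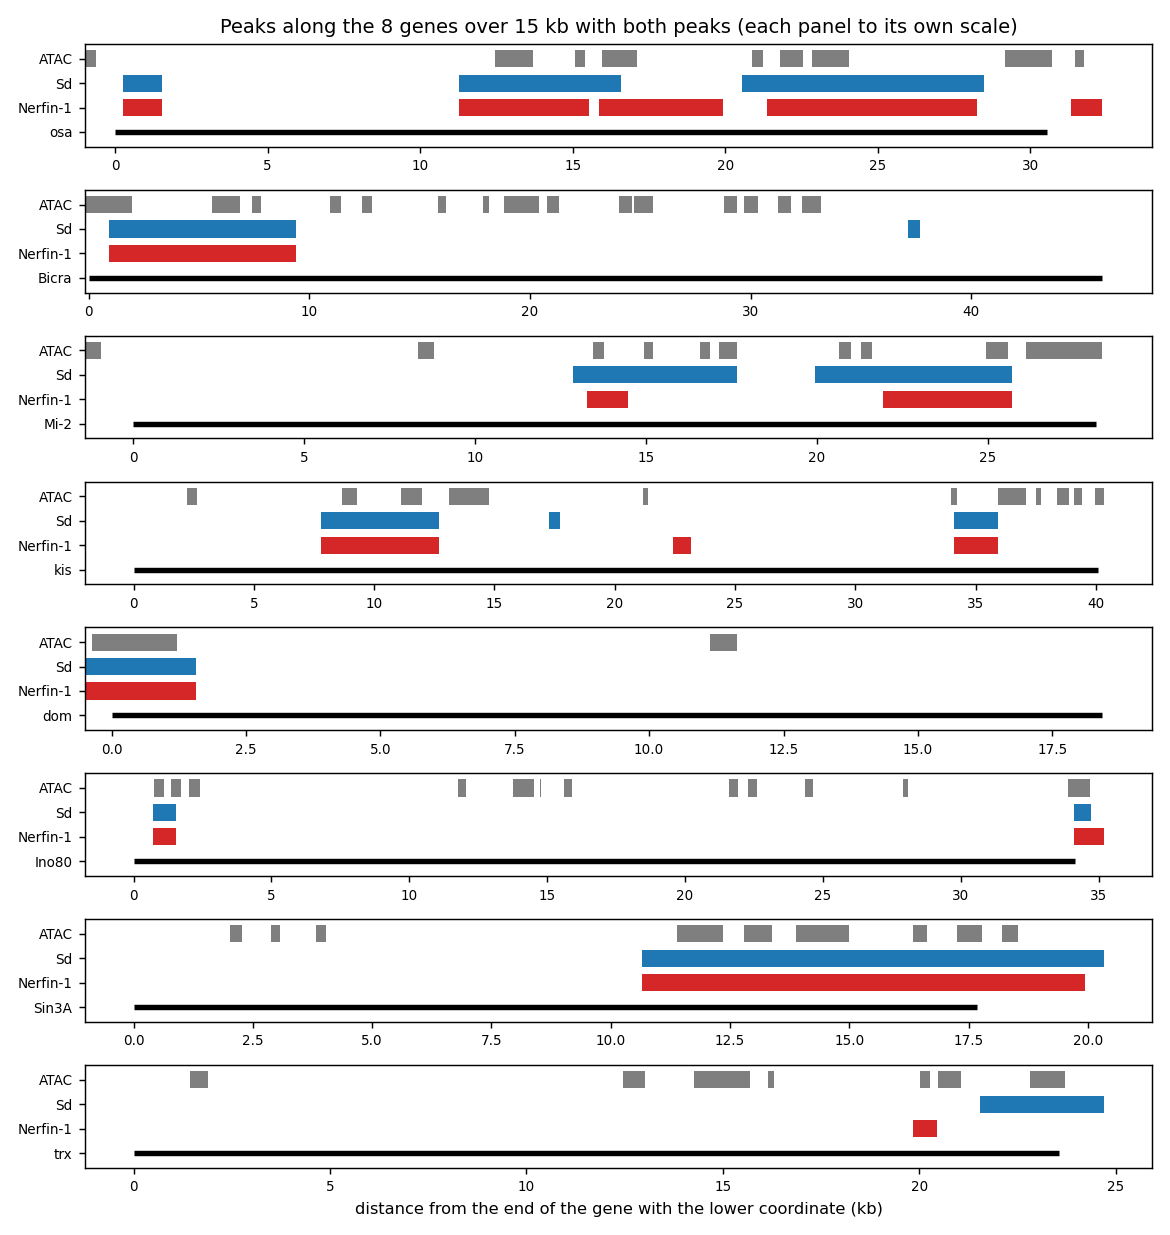
Positions of ATAC (grey), Sd (blue) and Nerfin-1 (red) peaks along the 8 chromatin genes over 15 kb that carry both DamID peaks, as distance in kb from the end of the gene with the lower coordinate (black bar, the gene; each panel to its own scale). The longest domain is at Sin3A (9685 bp for Sd), and osa carries the most Nerfin-1 peaks (5, among them a peak outside the gene, in Pxt).

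Sin3A held the longest domain of the group. At this scaffold gene of a histone deacetylase complex (FBgn0022764, 2R, 12575240 to 12592917) the Sd peak spanned 9685 bp (12585892 to 12595576) and the Nerfin-1 peak 9282 bp from the same start, of which 7026 bp lay in Sin3A and the rest beyond it, reaching Amph. The domain held 6 of the 9 ATAC peaks. HDAC1, the deacetylase of this and other complexes, had neither peak, the nearest Sd peak lying 6577 bp away. At CoRest, which links the demethylase Su(var)3-3 to repressors, a peak of 846 bp lay 219 bp outside the gene and in Idh3a. Sin3A RNA stood at 917, 971 and 924 CPM, HDAC1 at 454, 479 and 509 CPM and CoRest at 268, 279 and 294 CPM. On this scaling HDAC1 and CoRest were both lowest in S1 and highest in S3. Of all listed genes, 63.1% were lowest in S1 and 68.7% highest in S3, so this order was common.

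Genes of PRC1, with a median length of 11650 bp, were occupied at 5 of 6 for Sd and 4 of 6 for Nerfin-1. Listed genes of 5 to 15 kb were occupied at 66.9% and 62.2%. Pc (FBgn0003042, 3L), whose chromodomain binds the methylated histone, had a Sd peak of 773 bp (21317072 to 21317844) and no Nerfin-1 peak within 24708 bp. The tandem paralogs ph-d and ph-p encode SAM-domain subunits. At ph-d a peak of 2716 bp with shared boundaries ran from inside the gene into the space before ph-p, and ph-p had a Sd peak of 1042 bp and a Nerfin-1 peak of 393 bp within it that lay on no ATAC peak. The RING-finger gene Psc (FBgn0005624, 2R, 12965997 to 12980994) carried a Sd peak of 3808 bp (12973547 to 12977354) and a Nerfin-1 peak of 2846 bp (12978741 to 12981586). Its relative and neighbour Su(z)2 had peaks of 2470 bp (Sd) and 2242 bp (Nerfin-1) over one end. Sce, the ubiquitin ligase subunit, had neither, with the nearest peak at 16463 bp.

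PRC1 transcripts varied by at most 1.09-fold between libraries. Pc was at 65.2, 68.7 and 67.6 CPM, an SD of 1.78 against a counting error of 1.19 CPM. Sce was at 87.1, 86.4 and 89.2 CPM and Su(z)2 at 192, 191 and 194 CPM, with SDs 1.09 and 0.979 times the counting error. Psc was at 284, 286 and 296 CPM, so its spread was 2.70 times the counting error. The ph-p and ph-d values, 596, 591 and 570 CPM and 476, 494 and 453 CPM, are uncertain, because these paralogs are near copies and the sources used here do not say how reads common to them were counted.

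Among the 4 PRC2 genes, Sd peaks were counted at 2 and Nerfin-1 peaks at 1, all of them outside the genes, against 35.6% and 32.9% of all protein-coding genes. E(z), the methyltransferase, was counted for a Sd peak of 203 bp that lay 293 bp beyond the gene, in Cnep1r2, while the nearest Nerfin-1 peak was 1964 bp away. Pcl was counted for peaks of 450 and 1081 bp in both lists, 670 and 113 bp from the gene, in Hsf and pAbp. Su(z)12 and esc, a WD-repeat subunit that acts mainly in the early embryo, had none, nor did pho (FBgn0002521) on chromosome 4, where the nearest peak of either list was 14351 bp away. RNA was listed for E(z) at 100, 106 and 109 CPM, Su(z)12 at 167, 164 and 155 CPM, Pcl at 173, 181 and 174 CPM and pho at 185, 181 and 180 CPM. No row was found for esc, which lies wholly inside Pde1c; its paralog escl was listed at 40.0, 40.8 and 43.6 CPM.

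All 3 Trithorax group genes carried both kinds of peak, against 27.7% of all protein-coding genes and 45.9% of listed ones. Their median length was 13120 bp. Of listed genes of 5 to 15 kb 56.4% carried both, and of those over 15 kb 72.1%, so nothing particular to these 3 genes is read from the count. At trx (FBgn0003862, 3R, 14263358 to 14286903), an H3K4 methyltransferase of the MLL family, the Sd peak (3154 bp, 14284902 to 14288055) reached over one end and the Nerfin-1 peak (608 bp, 14283196 to 14283803) lay inside the gene. At ash1, another histone methyltransferase gene, a peak of 1174 bp with shared boundaries covered one end together with Taf6. Trl (FBgn0013263, 3L, 14747929 to 14761049), which encodes GAGA factor, had 1 domain of 4529 bp with shared boundaries (14754497 to 14759025), and 4 of its 5 ATAC peaks touched it. The trx level was 515, 566 and 462 CPM (514 ± 52.1; SD, n = 3) and that of ash1 191, 204.7 and 182 CPM, both lowest in S3. For Trl no row was found, and 10564 bp of its span are shared with CG42507 and Tsen34; whether the overlap bears on the missing row was not tested.

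The acetyltransferase, H3K9 methyltransferase and H3K27 demethylase genes had no DamID peak in the gene itself. The longest unoccupied gene of the group was nej (FBgn0261617, X, 9665442 to 9687066), the fly CBP, with 6 ATAC peaks and the nearest Sd and Nerfin-1 peaks 2087 and 2557 bp away. G9a was counted for a Sd peak of 547 bp lying 110 bp outside, in CG42376. Utx had 2 ATAC peaks, with the nearest peak of each list 1993 bp away. These distances show where the limit of 1 kb falls: the brm peak at 900 bp was the farthest counted, and the E(z), Utx and nej peaks at 1964 to 2557 bp were the nearest left out among genes that lacked a peak of that list. Their RNA levels were 906, 923 and 756 CPM for nej, 200, 202 and 195 CPM for G9a and 277, 275 and 282 CPM for Utx.

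Peaks at chromatin genes lay mostly on open chromatin. Of the 32 Sd peaks at these genes, 28 (87.5%) overlapped an ATAC peak, against 76.8% of all Sd peaks, and of the 30 Nerfin-1 peaks 27 (90.0%) did, against 74.7%. They were similar in median length to the lists as wholes, 1214 bp against 1140 bp for Sd and 1228 bp against 1146 bp for Nerfin-1. A length of 5 kb was reached by 5 of the 32 Sd peaks (at Sin3A, Bicra, Mi-2 and osa) and by 142 of all 4064. It was reached by 3 of the 30 Nerfin-1 peaks and by 67 of all 3649. From the other side, 53 of the 137 ATAC peaks at chromatin genes (38.7%) touched a DamID peak, against 19.2% at all protein-coding genes, and at the 20 genes with both kinds of peak 50 of 106 (47.2%) did, where all protein-coding genes with both gave 33.6%. None of these shares was matched on gene length or RNA listing. The chromatin genes had a median length of 8418 bp, against 2163 bp over all protein-coding genes. These values are descriptions with no test, and nothing particular to the chromatin genes is read from them.

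Many of these peaks cannot be given to the chromatin gene alone. Of the 32 Sd peaks, 15 also overlapped another protein-coding gene, and of the 30 Nerfin-1 peaks 16 did. The shares over all peaks are not given here, so nothing particular to peaks at these genes is read from these counts. The authors' deposited table paired 16 of the Sd peaks and 15 of the Nerfin-1 peaks with the identifier of the chromatin gene they lie at. By that pairing at least 16 of the 36 genes had a Sd peak (28.0% of all genes) and at least 15 a Nerfin-1 peak (25.3%), since for Ino80 it could not be looked up under the newer identifier. Of the other genes with both peaks by position, brm, Mi-2, CoRest and Pcl had neither by the pairing.

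**Figure D4:**
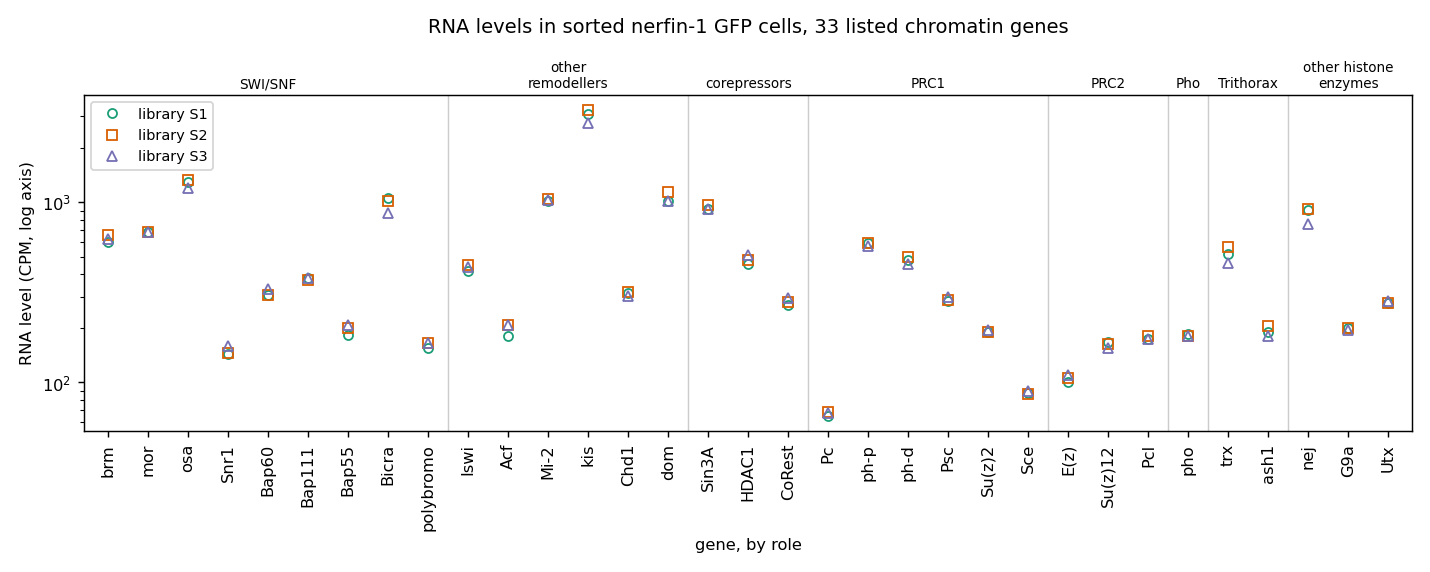
RNA level (CPM, log axis) of the 33 listed chromatin genes in libraries S1, S2 and S3 of sorted nerfin-1 GFP cells, 1 point per library, grouped by role. The points of a gene lie close together; nej, Bicra, trx and kis spread most visibly, each with its lowest value in S3.

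Across the 33 listed chromatin genes the mean level ranged from 67.2 CPM (Pc) to 3037 CPM (kis), with a median of 311 CPM. The median over all listed genes was 83.0 CPM, and since neither is divided by length no difference is read from them. The spread between libraries was small, a median coefficient of variation of 3.85% (0.0660% for mor to 10.7% for nej), against 5.93% over all listed genes. It was still a median of 4.90 times the counting error, against 3.53 times over all listed genes, so by this measure it was not smaller. In 2 of the 33 genes (mor and Su(z)2, 6.06%) the spread was within the counting error, against 4.87% of all listed genes. Samples from sorts of different days were pooled into the RNA samples, so this spread is that between pools, not between animals. Genes without a peak were listed as well, 12 of the 13 with neither and at least 18 of the 20 with both.

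The differences between libraries varied with gene length. In S3, log2(CPM + 1) minus the mean of the other libraries had a median of 0.06 in the 10 chromatin genes under 5 kb, 0.00 in the 15 of 5 to 15 kb and -0.16 in the 8 over 15 kb. Over all listed protein-coding genes these medians were 0.14, 0.03 and -0.05. The values were -0.28 for nej, -0.24 for Bicra, -0.23 for trx and -0.20 for kis, against 0.14 for Snr1 and 0.13 for HDAC1, while the long gene Mi-2 stood at 0.01. Spearman's rho with gene length was -0.67 over the 33 genes and -0.65 over the 4938 listed protein-coding genes, which share the libraries. In S1 it was 0.46 and 0.47. In S2 it was 0.55 over the chromatin genes and 0.23 over all, and the median of those over 15 kb was 0.12 against 0.02 for all genes of that length. The median of all genes in S3 was 0.10 on this scale, and that of the chromatin genes was lower by 0.10. Scaling by TMM factors moved the first to 0.01 and left the second difference at -0.10. Under the main scaling 7 of the 8 long genes were below 0 in S3, and with TMM or DESeq2 factors 8 of 8. Of the 10 genes under 5 kb, 1 was below 0 in S3, and 6 with either of those factors, so the direction for short genes depends on the scaling. Over all 33 genes the count below 0 in S3 was 15, and 28 with either. The shares of all listed genes below 0 are not given here, so no difference from them is read from these counts. The part that RNA quality or library preparation may have in the differences between libraries was not tested.

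**Figure D5:**
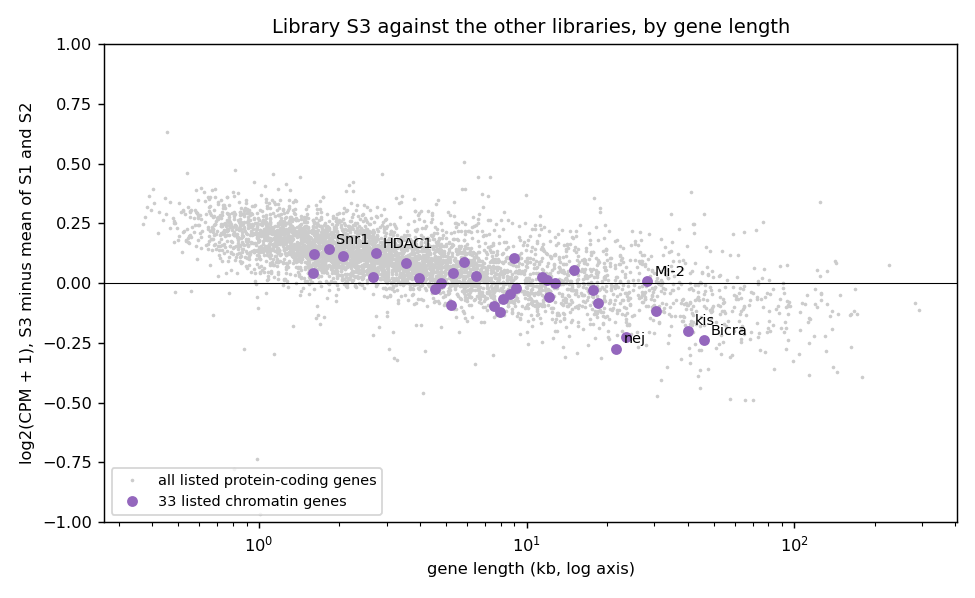
Difference of log2(CPM + 1) between library S3 and the mean of S1 and S2 (vertical axis) against gene length (kb, log axis) for the 33 listed chromatin genes and all listed protein-coding genes (grey; 8 genes lie outside the plotted range). Both sets slope down with length in this library, with rho of -0.67 and -0.65.

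A wider list of 59 other chromatin genes, of which 57 were matched, was counted the same way. Both kinds of peak were found at 35 of the 57 (61.4%), against 27.7% of all protein-coding genes and 45.9% of listed ones, Sd alone at 3, Nerfin-1 alone at 2 and neither at 17. All 57 had an ATAC peak and 53 were listed, and no count matched on length was made for them. Among partners of the remodellers 12 of 17 had both, including the NURF subunit E(bx) (1028, 1060 and 952 CPM) and the remodelling cofactor tou (1339, 1384 and 1238 CPM). Of 9 corepressor and deacetylase genes 5 had both, among them the corepressors gro (546, 548 and 527 CPM) and CtBP (992, 1011 and 983 CPM). Of 11 further Polycomb group genes 8 had both, among them jing, a gene of 119787 bp with 6 peaks of each kind, and Scm. In the Trithorax and COMPASS set 5 of 11 had both, including fs(1)h and the demethylase gene Kdm5, while 5 had neither. Both SWI/SNF genes of the wider list lacked a Nerfin-1 peak, Bap170 having neither peak and e(y)3 having Sd alone. Genes of other histone acetylation and H3K9 methylation enzymes or readers had both at 5 of 7, among them the acetyltransferase gene Gcn5 (75.3, 83.5 and 86.1 CPM) and its partner Ada2b.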

How the data were processed

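The authors deposited peak lists for DamID and ATAC-seq as chromosome, start and end, with gene identifiers in the DamID lists and no score, and a table of raw read counts per gene. The submitters' processing notes name the build dm6 and, with roles and settings not given in the sources used here, Bowtie2, Subread, featureCounts, MACS2, bedtools and edgeR. Columns of the RNA table left unmapped came to 0, and its column names give no replicate number.

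Gene positions came from the RefSeq table of the same assembly (Release 6 plus ISO1 MT), which has no strand, exons or sequence. Peaks were made distinct, and a gene carried a peak at an overlap of at least 1 bp with the gene or 1000 bp on either side. Counts were scaled to 1000000 listed counts per library. The lowest listed count was 99. Counting error is the Poisson SD of a library's CPM. TMM factors (edgeR 4.0.16) and DESeq2 1.42.0 size factors were alternatives, with Python 3.11.15, pandas 2.3.3 and SciPy 1.17.1 for the rest. Overlap counting and the counting error were checked on simulated data.

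The RNA samples form a single group and the peak lists have no replicate values, so no test was run. The genes and lists were chosen with earlier results of these data known. All 36 genes are named, and of the wider list at most 2 per class by RNA level and 2 with both peaks in list order, apart from escl, which was named after its values were seen. The comparison of library differences with gene length was added after the data were seen. For DamID and ATAC-seq the files give no read depth, so it is unknown.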

Additional observations from a re-analysis of the deposited data

How the results depend on the processing

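The counts of chromatin genes with a Sd peak (23), a Nerfin-1 peak (20) and both (20) stayed within 1.5 times in 4 settings, while the shares of all genes moved too. They were 18, 18 and 17 without flanks (all genes 27.5%, 25.5% and 21.0%), and 28, 25 and 25 with flanks of 5 kb (56.8%, 53.2% and 46.9%). At an overlap of 100 bp they were 23, 20 and 20 (34.9%, 32.3% and 27.2%), and by the authors' deposited pairing 16, 15 and 15 (28.0%, 25.3% and 20.9%). With the longer 50% of each list they fell to 13, 12 and 12, where all genes gave 20.1%, 18.3% and 14.6%; fewer peaks enter by construction. All 36 genes had an ATAC peak in these settings of flank, overlap and peak length. A DamID peak on open chromatin was found at 22 genes (34.5% of all genes), also at an overlap of 100 bp (33.5%) and with the longer 50% of ATAC peaks (30.7%), the settings in which it was counted. At 500 counts or more in every library at least 33 were listed (34.8% of all genes).

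The median RNA level of 311 CPM was the same to 3 digits under both other scalings, and ranged from 306.5 to 310.3 CPM with 1 library left out. The median log2 differences between libraries depended on the scaling. For S1 minus the others the value was -0.013 in the main setting, 0.067 with TMM and 0.072 with DESeq2 factors. For S2 it was 0.042, 0.055 and 0.056, and for S3 0.002, -0.091 and -0.097. With 1 library left out they ranged from -0.034 to -0.01 for S1, 0.023 to 0.034 for S2 and -0.023 to 0.01 for S3. Of single genes, 1 (mor, whose SD is far below its counting error) moved by more than its SD, with totals over genes of at least 500 counts. No paired analysis was possible because the RNA samples form a single group and the peak lists hold no value per replicate. Peak lists give no height, so weak and strong occupancy cannot be told apart.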
